A study of Mus musculus with 3 samples.

Results

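A set of 10 genes of TGF-beta and BMP signaling were followed in RNA of isolated mouse brain vessels: the ligands Tgfb1 and Tgfb2, the receptors Tgfbr1, Acvrl1, Tgfbr2 and Bmpr2, the co-receptors Eng and Tgfbr3, the inhibitory Smad gene Smad6, and the target gene Id1. They are 10 of the 29917 genes in the deposited tables. They were taken by name, each as its transcript row with the highest total count, and all 10 had such a row. Vessels were purified from whole brains of mice aged 3 months, those of 3 mice were pooled, and 1 polyadenylated RNA library was sequenced per group. The groups were C57BL6 WT, C57BL6-BALB/c WT, a wild type of mixed background, and Cx30-/-, in which Gjb6, the gene of the astrocyte gap junction protein connexin 30, is deleted in the whole animal. The labels put the Cx30-/- mice on a C57BL6 background, whereas the methods give a mixed C57BL6 and BALB/c one. Since each group is 1 library, the differences have no replicate check. The 2 WT libraries differ in background, mice and preparation at once, and these cannot be told apart. The question of the comparisons is how far brain vessels without Cx30 differ from wild-type vessels on each background.

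TGF-beta and BMP ligands are secreted proteins that bring together a type II receptor and a type I receptor, both serine/threonine kinases, and the activated type I receptor phosphorylates Smad proteins that enter the nucleus with Smad4. Endothelial cells carry a pair of type I receptors, the widely expressed ALK5 (Tgfbr1), which signals to Smad2 and Smad3, and ALK1 (Acvrl1), which is largely endothelial, binds BMP9 and BMP10 with the co-receptor endoglin (Eng), and signals to Smad1 and Smad5. Loss of one copy of ENG or ACVRL1 causes hereditary hemorrhagic telangiectasia in humans, a disease of arteriovenous malformations, also of the brain, and loss of BMPR2 causes pulmonary arterial hypertension.

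Deposited counts summed to between 50375426 and 60725557 per library. They were scaled by factors from the median of ratios (0.926 to 1.15), which make the typical gene equal between libraries, and the scaled values are called normalized counts. Gjb6, the deleted gene, followed the labels, with normalized counts of 2531 for C57BL6 WT, 2426 for C57BL6-BALB/c WT and 101 for Cx30-/- vessels. Endothelial markers were abundant, the summed level of 12 of them (Cldn5, Pecam1, Cdh5 and others) being 150813 normalized counts in C57BL6 WT, 96009 in C57BL6-BALB/c WT and 176328 in Cx30-/- vessels. In bulk vessels, fewer endothelial cells and less RNA of a gene per cell cannot be told apart. Markers of smooth muscle, pericytes, fibroblasts, astrocytes, neurons, oligodendrocytes and microglia were also present, and none of the markers listed was at 0 in all 3 libraries.

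RefSeq promoter windows, 250 bases before to 50 after an annotated start on GRCm38.p6, were at hand for 7 of the 10 genes (8 windows, Tgfbr1 having 2). These were Tgfb1, Tgfb2, Tgfbr1, Tgfbr2, Eng, Bmpr2 and Smad6, while Tgfbr3, Acvrl1 and Id1 were not matched. The windows were searched on both strands for 3 short motifs that Smad proteins are known to bind: GTCTAGAC and GGCGCC, each its own reverse complement, and CAGAC, whose reverse complement is GTCTG. None of the 3 motifs lies inside another. The stretches of 250 bases printed here belong to Smad6, the only gene of the set whose window held GTCTAGAC, to Eng, the gene with the highest level in 2 of the 3 libraries, and to Tgfbr2, the gene that passed 2-fold between libraries, with motif matches in capitals. Each runs 5′ to 3′ on the strand of its gene, on GRCm38.p6 at chr9:64022056-64022305 (minus strand, ending 4 bases after the start), chr2:32646345-32646594 (plus strand, ending at the base before the start) and chr9:116175364-116175613 (minus strand, ending at the base before the start).
Smad6: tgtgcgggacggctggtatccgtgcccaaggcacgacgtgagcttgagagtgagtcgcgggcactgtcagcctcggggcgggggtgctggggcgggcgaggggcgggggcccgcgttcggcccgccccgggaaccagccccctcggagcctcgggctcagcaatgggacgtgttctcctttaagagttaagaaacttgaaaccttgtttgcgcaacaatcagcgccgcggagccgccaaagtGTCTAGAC
Eng: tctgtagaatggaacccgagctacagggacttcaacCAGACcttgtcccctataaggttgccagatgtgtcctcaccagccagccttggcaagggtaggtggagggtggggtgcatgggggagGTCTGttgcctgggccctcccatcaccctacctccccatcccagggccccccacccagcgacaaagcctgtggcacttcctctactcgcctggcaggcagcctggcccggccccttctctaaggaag
Tgfbr2: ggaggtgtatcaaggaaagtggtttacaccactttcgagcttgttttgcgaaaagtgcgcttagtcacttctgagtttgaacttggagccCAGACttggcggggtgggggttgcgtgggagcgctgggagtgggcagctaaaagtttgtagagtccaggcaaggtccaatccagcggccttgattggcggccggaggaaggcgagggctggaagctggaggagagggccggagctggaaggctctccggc
GTCTAGAC spanned the start of Smad6, its first base lying 4 bases before it. This motif is rare, being found in 0.213% of all 32851 windows of this length. CAGAC was found in the windows of Eng, Tgfb2, Tgfbr1 and Tgfbr2, and in 49.6% of all windows. GGCGCC was found in the windows of Bmpr2 and Tgfbr1, and in 11.9% of all windows. The matches are letters in these windows and were not measured as bound sites.

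Levels of different genes were compared per kb of transcript, with 95% intervals that cover the counting of reads only. Eng, the co-receptor, and Id1, an inhibitor of basic helix-loop-helix factors and a direct target of BMP signaling, stood at the top in every library. Eng reached 3933 normalized counts per kb in C57BL6 WT, 2639 in C57BL6-BALB/c WT and 4671 in Cx30-/- vessels. Id1 reached 3240, 2851 and 4541. Eng thus led in C57BL6 WT, Id1 led in C57BL6-BALB/c WT, and in Cx30-/- vessels their intervals overlapped. Acvrl1 came next with 2135, 1779 and 2628 per kb, followed by Tgfbr2 with 820, 460 and 942. The other 6 genes lay lower and close together, between 209 per kb (Tgfbr1 in C57BL6-BALB/c WT) and 479 per kb (Tgfbr3 in Cx30-/-).

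**Figure D1:**
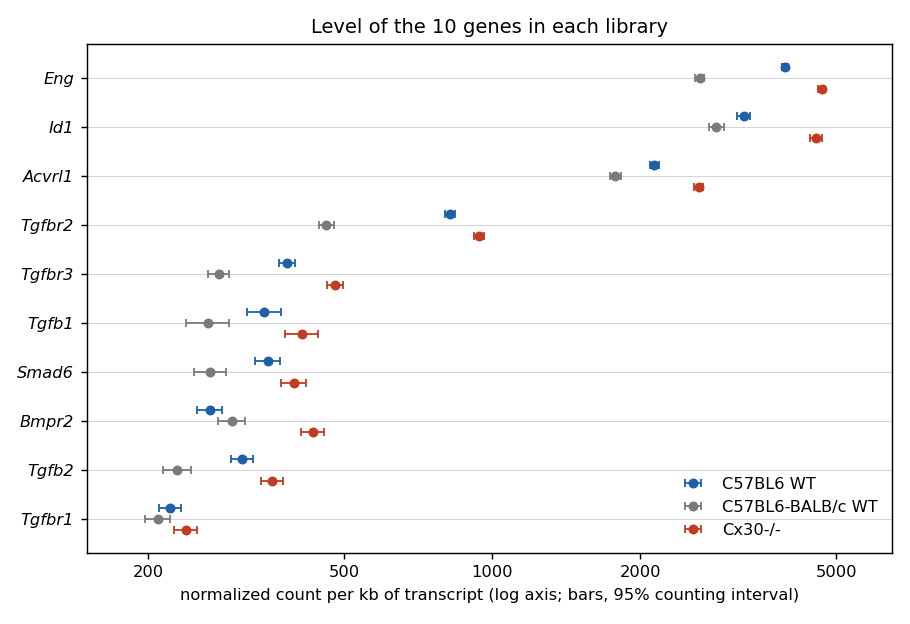
Normalized count per kb of transcript (log axis) of the 10 genes in C57BL6 WT (blue), C57BL6-BALB/c WT (gray) and Cx30-/- (red) vessels, 1 library each, with 95% counting intervals as bars. The Cx30-/- point is the highest for every gene, and Eng, Id1 and Acvrl1 stand above the other 7 genes, at 1779 or more, per kb in all libraries.

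Among those 6 genes, many neighbors could not be ordered. In C57BL6 WT vessels the intervals of Tgfbr3 and Smad6, of Smad6 and Tgfb1, and of Tgfb1 and Tgfb2 overlapped, whereas Bmpr2 and then Tgfbr1 lay clearly lower. In C57BL6-BALB/c WT vessels each gene from Bmpr2 down to Tgfbr1 overlapped the next. In Cx30-/- vessels Bmpr2, Tgfb1 and Smad6 overlapped in turn, as did Smad6 and Tgfb2, and Tgfbr1 was lowest. The scale depends on the row: reads covered 60.2%, 59.0% and 60.5% of the 8088 bases of the Tgfbr2 row, against 91.5% or more for the other 9 genes, and the Bmpr2 row is 3507 bases long in the files while its transcript has 12899 in GENCODE M21. The rows of Tgfb1 (1621 bases, 2175 in its transcript) and Tgfb2 (4258, 5116 in its transcript) are also shorter. What these lengths do to the levels per kb of these genes was not tested. The row lengths are the same in each library.

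The ligands were measured first. Tgfb1, the main latent TGF-beta of blood and vessel wall (ENSMUSG00000002603; chromosome 7 of GRCm38, 25687002 to 25705077, plus strand), stood at 557 normalized counts in C57BL6 WT, at 429 in C57BL6-BALB/c WT and at 665 in Cx30-/- vessels. Tgfb2, a second isoform that needs betaglycan for strong receptor binding (ENSMUSG00000039239; chromosome 1, 186622792 to 186705989, minus strand), had 1322, 976 and 1521. Both ligands were thus highest in Cx30-/- and lowest in C57BL6-BALB/c WT vessels. For Tgfb1 the log2 ratio of Cx30-/- was 0.26 against C57BL6 WT (95% counting interval 0.09 to 0.42) and 0.63 against C57BL6-BALB/c WT (0.45 to 0.82). For Tgfb2 it was 0.20 (0.10 to 0.31) and 0.64 (0.52 to 0.76). The ratio of Tgfb1 to Tgfb2 per length stayed at 1.11, 1.15 and 1.15 in C57BL6 WT, C57BL6-BALB/c WT and Cx30-/- vessels, with overlapping intervals.

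Type I receptors came next. Tgfbr1, encoding ALK5 (ENSMUSG00000007613; chromosome 4, 47353222 to 47414931, plus strand), stood at 1277 normalized counts in C57BL6 WT, at 1204 in C57BL6-BALB/c WT and at 1371 in Cx30-/- vessels, the flattest values of the 10 genes. Its log2 ratio of Cx30-/- was 0.10 against C57BL6 WT, with an interval that spanned 0 (-0.01 to 0.21), and 0.19 against C57BL6-BALB/c WT (0.07 to 0.30). Acvrl1, encoding ALK1 (ENSMUSG00000000530; chromosome 15, 101128522 to 101145336, plus strand), had 7770, 6475 and 9566 normalized counts. For Acvrl1 the log2 ratios were 0.30 (0.26 to 0.34) and 0.56 (0.52 to 0.61). Both type I receptors had the same order of libraries, with wider distances for ALK1. Per length, Acvrl1 exceeded Tgfbr1 by 9.62 times in C57BL6 WT (9.11 to 10.2), 8.50 times in C57BL6-BALB/c WT (7.97 to 9.07) and 11.0 times in Cx30-/- vessels (10.4 to 11.7). This ratio is taken within a library and does not depend on size factors. Its order of libraries was also that of the summed endothelial markers, and the part of endothelial content in it was not tested. The counting intervals of the 3 libraries did not overlap, and the share of other gene pairs of which this holds was not computed. Those intervals cover read sampling only, and how far the ratio varies between libraries of 1 group is unknown.

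The type II receptors showed the largest single differences. Tgfbr2, the type II receptor of TGF-beta (ENSMUSG00000032440; chromosome 9, 116084293 to 116175360, minus strand), stood at 6630 normalized counts in C57BL6 WT, at 3723 in C57BL6-BALB/c WT and at 7615 in Cx30-/- vessels. The mixed WT library stood far below the other two. Against it, Cx30-/- was 2.05-fold higher (log2 ratio 1.03, 0.97 to 1.09), whereas against C57BL6 WT the log2 ratio was 0.20 (0.15 to 0.25). Between the WT libraries the log2 ratio of Tgfbr2 was -0.83 (-0.89 to -0.77), C57BL6-BALB/c being lower. Bmpr2, the type II receptor of BMPs (ENSMUSG00000067336; chromosome 1, 59763400 to 59879014, plus strand), stood at 934 normalized counts in C57BL6 WT, at 1036 in C57BL6-BALB/c WT and at 1513 in Cx30-/- vessels. Its WT libraries lay close together, and Cx30-/- lay above both. The log2 ratio of Cx30-/- was 0.70 against C57BL6 WT (0.58 to 0.81), a 1.62-fold difference and the largest of the 10 genes in that comparison, and 0.55 against C57BL6-BALB/c WT (0.43 to 0.67). Bmpr2 was also the only one of the 10 genes that was higher in C57BL6-BALB/c than in C57BL6 WT vessels (log2 ratio 0.15, 0.02 to 0.28). Within a library, Tgfbr2 exceeded Bmpr2 per length by 3.08 times in C57BL6 WT, 1.56 times in C57BL6-BALB/c WT and 2.18 times in Cx30-/- vessels, with counting intervals that did not overlap. How far this proportion varies between libraries of 1 group is unknown, as is the share of other gene pairs whose intervals do not overlap.

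The co-receptors differed in level and had the same order of libraries. Eng, encoding endoglin (ENSMUSG00000026814; chromosome 2, 32646595 to 32682669, plus strand), stood at 13458 normalized counts in C57BL6 WT, at 9030 in C57BL6-BALB/c WT and at 15984 in Cx30-/- vessels. Tgfbr3, encoding betaglycan, which presents TGF-beta to its type II receptor (ENSMUSG00000029287; chromosome 5, 107106570 to 107289629, minus strand), had 2334, 1693 and 2916. For Eng the log2 ratio of Cx30-/- was 0.25 against C57BL6 WT (0.22 to 0.28) and 0.82 against C57BL6-BALB/c WT (0.79 to 0.86). The same ratios of Tgfbr3 were 0.32 (0.24 to 0.40) and 0.78 (0.70 to 0.88). Eng exceeded Tgfbr3 per length by 10.3, 9.49 and 9.75 times in C57BL6 WT, C57BL6-BALB/c WT and Cx30-/- vessels, with overlapping intervals.

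At the level of Smads and targets, Smad6, an inhibitory Smad that blocks BMP type I receptors and is itself induced by BMPs (ENSMUSG00000036867; chromosome 9, 63953076 to 64022059, minus strand), stood at 1014 normalized counts in C57BL6 WT, at 774 in C57BL6-BALB/c WT and at 1146 in Cx30-/- vessels. Id1 (ENSMUSG00000042745; chromosome 2, 152736251 to 152737410, plus strand) had 3758, 3307 and 5267. Both were highest in Cx30-/- vessels, Id1 by the wider margin over C57BL6 WT. The log2 ratio of Smad6 in Cx30-/- was 0.18 against C57BL6 WT (0.06 to 0.30) and 0.56 against C57BL6-BALB/c WT (0.43 to 0.70). For Id1 it was 0.49 (0.43 to 0.55) and 0.67 (0.61 to 0.74). The close relative Id3, read beside it as another BMP target, had 3765, 2877 and 5187 normalized counts, the same order of libraries as Id1. The other Id genes of the target list did not have it: Id2 had 1003, 757 and 954 normalized counts and Id4 853, 716 and 780, both highest in C57BL6 WT vessels. Against Smad7, the other inhibitory Smad gene, Smad6 stood at 1.32 per length in C57BL6 WT (1.22 to 1.43), 0.952 in C57BL6-BALB/c WT (0.865 to 1.05) and 1.09 in Cx30-/- vessels (1.00 to 1.17). Smad7 itself did not share the low value of Smad6 in the mixed WT library, with 1129, 1200 and 1556 normalized counts.

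**Figure D2:**
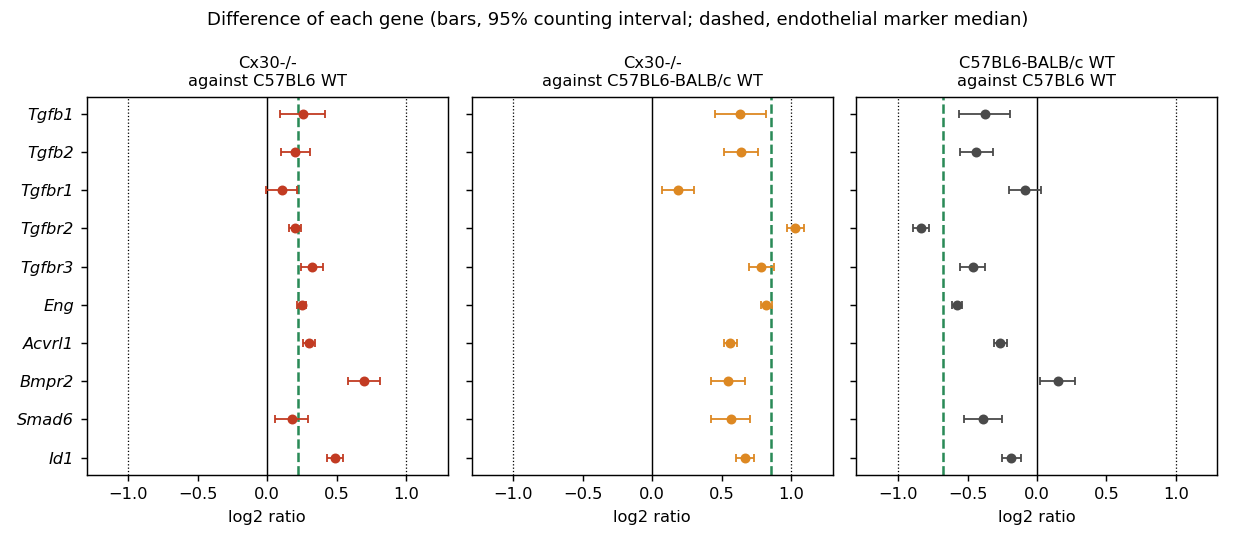
Log2 ratio of each of the 10 genes in the 3 comparisons, with 95% counting intervals as bars, a green dashed line at the median of 12 endothelial markers and dotted lines at 2-fold. Points lie right of 0 in both Cx30-/- panels and, Bmpr2 excepted, left of 0 between the WT libraries, and only Tgfbr2 passes 2-fold, against C57BL6-BALB/c WT. Read against the dashed line in place of 0, signs change for 4, 9 and 8 of the 10 genes.

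Over the set, all 10 genes had a higher value in Cx30-/- than in C57BL6 WT vessels, where 49.3% of the 14776 genes reaching 50 normalized counts in either library did. The median log2 ratio of the 10 was 0.25, with a range from 0.10 to 0.70, against a median of -0.0046 over all those genes. Counting intervals lay above 0 for 9 of the 10, Tgfbr1 being the exception. None was past 2-fold, beside 1.42% of genes upward and 1.26% downward. The share of all genes with counting intervals above 0 was not computed against either WT library. Against C57BL6-BALB/c WT, all 10 were again higher, beside 50.3% of 14891 genes, and all 10 had intervals above 0. Here the median was 0.64 with a range from 0.19 to 1.03, and 1 of the 10, Tgfbr2, passed 2-fold, beside 3.96% of genes upward and 4.73% downward. Since both comparisons hold the same Cx30-/- library, they are not independent of each other. At a limit of 1.5-fold, 1 gene (Bmpr2) passed upward against C57BL6 WT, beside 4.91% of genes upward and 5.85% downward, and 6 passed upward against C57BL6-BALB/c WT, beside 14.1% and 14.8%. The directions of the 10 genes held with every scaling tried except the one that sets the endothelial median to 0, under which 4 of the 10 genes changed sign against C57BL6 WT, 9 against C57BL6-BALB/c WT and 8 between the WT libraries.

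Between the WT libraries, 9 of the 10 genes were lower in C57BL6-BALB/c than in C57BL6 vessels, beside 50% of 14791 genes. The median log2 ratio was -0.38 and the range ran from -0.83 (Tgfbr2) to 0.15 (Bmpr2). Intervals lay below 0 for 8 genes, above 0 for Bmpr2, and spanned 0 for Tgfbr1 (log2 ratio -0.08, -0.20 to 0.03). The share of all genes with such intervals was not computed. No gene of the set passed 2-fold, whereas 1.41% of all genes did so upward and 2.02% downward. At 1.5-fold, 1 gene (Tgfbr2) passed downward, beside 7.34% of genes upward and 8.04% downward. The order of Cx30-/- above C57BL6 WT above C57BL6-BALB/c WT was shared by 9 of the 10 genes, all but Bmpr2, and by 27.3% of 14979 genes. This count and the next were chosen after the values had been seen. Cx30-/- lay above both WT libraries for 10 of 10 genes and for 36.4% of genes at large, and did so by more than the WT libraries differed from each other for 4 of the 10, Tgfbr1, Acvrl1, Bmpr2 and Id1, and for 15.4% of genes. With scaling by total count this number was 2, Bmpr2 and Id1. Tgfbr1 was counted on distances of 0.10 and 0.08, and the counting intervals of both spanned 0. Bmpr2 lay 0.55 above the nearer WT library on the log2 scale, which differed by 0.15 from the other, and Id1 lay 0.49 above with 0.18 between the WT libraries. For Tgfbr2 the distance to the nearer WT library, 0.20, was far smaller than the 0.83 between the WT libraries. With the endothelial median set to 0, only Tgfbr2 stayed above C57BL6-BALB/c WT (log2 ratio 0.18), and it then lay below C57BL6 WT (-0.02). Bmpr2 (-0.31) and Id1 (-0.18) then lay below C57BL6-BALB/c WT.

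Endothelial markers moved with these values. All 12 were higher in Cx30-/- than in each WT library and lower in C57BL6-BALB/c than in C57BL6 WT vessels, and their median log2 ratios were 0.22 against C57BL6 WT, 0.86 against C57BL6-BALB/c WT and -0.67 between the WT libraries. The order of Cx30-/- above C57BL6 WT above C57BL6-BALB/c WT was thus found in 12 of 12 endothelial markers and 9 of the 10 signaling genes. Relative to the endothelial median, the 10 genes ran from -0.12 (Tgfbr1) to 0.47 (Bmpr2) against C57BL6 WT, with 6 above it, and from -0.67 (Tgfbr1) to 0.18 (Tgfbr2) against C57BL6-BALB/c WT, with Tgfbr2 alone above it. Tgfbr1, the widely expressed type I receptor, had the smallest log2 ratio in both Cx30-/- comparisons before this shift. The part of endothelial content in the differences of the 10 genes was not tested.

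Other cell types also varied. Summed pericyte markers were 65443, 41206 and 70216 normalized counts in C57BL6 WT, C57BL6-BALB/c WT and Cx30-/- vessels (8 of 8 detected). Without Rgs5, the most abundant of them, the sums were 31234, 19864 and 30173, so Cx30-/- no longer stood above C57BL6 WT, and 5 of the 8 genes were higher and 3 lower in Cx30-/- than in C57BL6 WT vessels. Smooth muscle markers, summed over 6 of 6, were lowest in C57BL6 WT, with 40211, 59440 and 54160. Neuronal markers (7 of 7) were 39608, 48062 and 27783 and oligodendrocyte markers (5 of 5) 49121, 43825 and 39230, both lowest in Cx30-/- vessels, and astrocyte markers (6 of 6) were 38503, 37139 and 30279. Fibroblast markers (6 of 6) were 10650, 9098 and 12603, microglia and macrophage markers (7 of 7) 6079, 4115 and 5500, platelet markers (5 of 5) 615, 442 and 1076, and immediate early genes (6 of 6) 11157, 17041 and 9205. Fosb alone held 840, 6510 and 515 of the immediate early counts. Of these 6 genes, 2 were higher and 4 lower in C57BL6-BALB/c than in C57BL6 WT vessels. Platelets and microglia carry Tgfb1 in quantity. The summed platelet list was highest in Cx30-/- vessels, as Tgfb1 was, whereas the summed microglia and macrophage list was highest in C57BL6 WT vessels. Both sums were lowest in C57BL6-BALB/c WT vessels. Of the 7 microglia and macrophage genes, 2 (Aif1 and Mrc1) were higher and 5 lower in Cx30-/- than in C57BL6 WT vessels. Between the WT libraries, 1 of these 7 (Aif1) was higher in C57BL6-BALB/c vessels, as was 1 of 4 platelet genes with enough counts (Itga2b). The part of any of these lists in the values of the 10 genes was not tested.

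**Figure D3:**
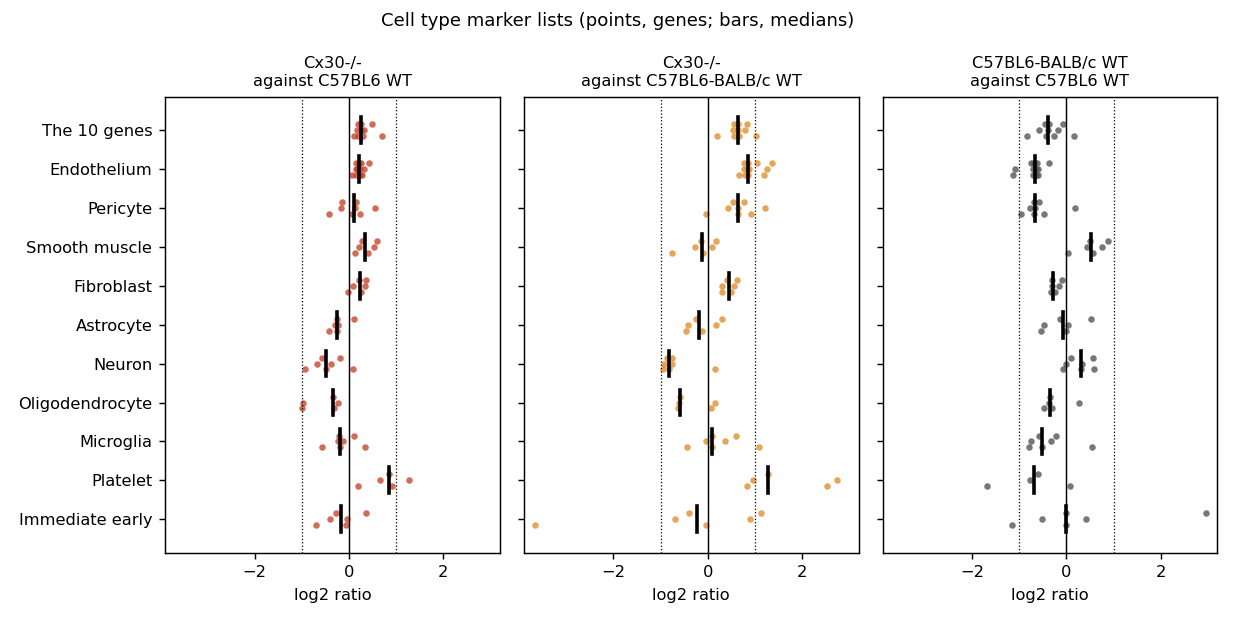
Log2 ratio of the 10 genes and of the marker genes of 9 cell types and the immediate early response in the 3 comparisons, 1 point per gene with enough counts and a black bar at each median. The median of the 10 genes lies on the side of the endothelial, pericyte, fibroblast and platelet medians in all panels, while the neuron median lies on the other side of 0. Between the WT libraries Bmpr2 alone of the 10 lies right of 0.

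The only test with any spread between libraries took both WT libraries as 1 group, so that their difference, background included, served as the error. By edgeR's quasi-likelihood test with Benjamini-Hochberg adjustment over 17576 genes, 0 of the 10 were called, beside 9 of all genes (0.0512%). Bmpr2 had the lowest p (0.031, adjusted p = 0.515 by edgeR, log2 fold change 0.62), and was the 1 gene of the set with an unadjusted p under 0.05, as were 1528 of all genes. The adjusted p of the other 9 genes in edgeR lay between 0.68 and 0.949. DESeq2 also called 0 of the 10, with a lowest adjusted p of 0.935, and so did the other edgeR settings tried. All 10 fitted fold changes were upward, which follows from Cx30-/- lying above both WT libraries for each of the 10 and adds nothing to it.

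The wider pathways were read through a list of 87 further genes, of which 83 had a row, while Bmp6, Gdf10, Rgmb and Lrrc32 were not analysed here. Their median log2 ratios were 0.02 against C57BL6 WT (75 genes with enough counts), 0.02 against C57BL6-BALB/c WT (77) and -0.06 between the WT libraries (77), all near the medians of all genes, whereas the 10 genes stood at 0.25, 0.64 and -0.38. Of the 7 roles, targets came closest to them, with medians of 0.21, 0.71 and -0.40. Of the 14 targets, 9 were higher in Cx30-/- than in C57BL6 WT, beside 49.3% of all genes with enough counts. Against C57BL6-BALB/c WT 12 were higher, beside 50.3%. Between the WT libraries 11 were lower in C57BL6-BALB/c vessels, beside 50%. The medians of the 12 endothelial markers were 0.22, 0.86 and -0.67, and the part of endothelial content in the targets was not tested. Genes at 0 counts in all libraries were Gdf2 and Bmp10, which encode BMP9 and BMP10, the ligands of ALK1 made chiefly in liver and heart.

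Only 2 genes of the list, Acvr1c and Fst, passed 2-fold in the same direction against both WT libraries. Of the 83 genes with a row, 75 had enough counts against C57BL6 WT and 77 against C57BL6-BALB/c WT. Of the 14688 genes with enough counts in both comparisons, 1.42% passed in this way. Acvr1c, encoding the type I receptor ALK7, stood at 319 normalized counts in C57BL6 WT, at 409 in C57BL6-BALB/c WT and at 157 in Cx30-/- vessels, log2 ratios of -1.02 and -1.38. Fst, encoding the activin antagonist follistatin, had 69.0, 84.2 and 31.5, with log2 ratios of -1.13 (-1.79 to -0.51) and -1.42 (-2.08 to -0.80). Acvr1c and Fst had the order of libraries of the summed neuronal markers (39608, 48062 and 27783). Of these 7 markers, 6 were lower in Cx30-/- than in each WT library and 1 was higher. The part of neuronal content in Acvr1c and Fst was not tested. By edgeR the adjusted p of Acvr1c was 0.247, and 0 of the 79 genes tested were called, beside 9 of all 17576 genes. An unadjusted p under 0.05 in edgeR was found for 6 of the 79, beside 1528 of all 17576 genes. Against C57BL6 WT no other gene of the list passed 2-fold.

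**Figure D4:**
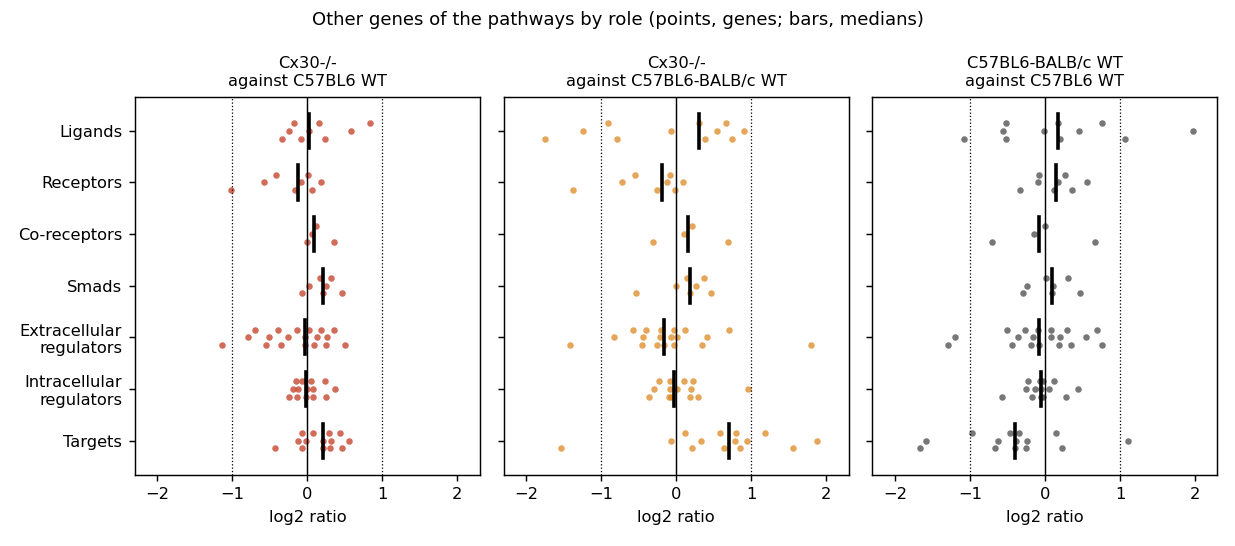
Log2 ratio of the further genes of the TGF-beta and BMP pathways by role in the 3 comparisons, 1 point per gene with enough counts, a black bar at each median and dotted lines at 2-fold. Targets are displaced to the right against C57BL6-BALB/c WT (median 0.71) and to the left between the WT libraries (median -0.40), while the medians of the other roles lie between -0.19 and 0.31.

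Against C57BL6-BALB/c WT, 4 of 77 further genes passed 2-fold upward and 5 downward, beside 3.96% and 4.73% of all genes. Those upward were the BMP antagonist Grem1 (1.80), the matricellular target Ccn1 (1.18), Tmem100 (1.56), a target of ALK1 signaling in endothelium, and the flow-induced factor Klf2 (1.87), all log2 ratios. Klf2 stood at 7180 normalized counts in C57BL6 WT, at 2264 in C57BL6-BALB/c WT and at 8296 in Cx30-/- vessels, and Tmem100 had 863, 287 and 850. Both were thus low in the mixed WT library and nearer to each other in the other two, as Tgfbr2 was. Genes past 2-fold downward included the ligand genes Bmp3 (-1.24) and Inhba (-1.75) beside Acvr1c and Fst. Inhba, the activin A subunit, had 38.4, 151 and 45.1 normalized counts, and was thus high in C57BL6-BALB/c WT vessels, opposite to Id1 and Smad6.

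Between the WT libraries, 3 of 77 further genes passed 2-fold upward and 5 downward, beside 1.41% and 2.02% of all genes. The ligand genes Tgfb3 (log2 ratio 1.07) and Inhba (1.98) were past 2-fold higher in C57BL6-BALB/c vessels, and Nodal (-1.08), Grem1 (-1.29), Sostdc1 (-1.20), Tmem100 (-1.59) and Klf2 (-1.67) past 2-fold lower. The ligand Tgfb3 went against its relatives, with 1140 normalized counts in C57BL6 WT, 2389 in C57BL6-BALB/c WT and 1276 in Cx30-/- vessels. Per length, Tgfb3 did not differ from Tgfb1 beyond its interval in C57BL6 WT (ratio 0.999, 0.908 to 1.10) and Cx30-/- vessels (0.936, 0.849 to 1.03) and exceeded it by 2.72 times in C57BL6-BALB/c WT vessels (2.44 to 3.03). Against Tgfb2 the ratio of Tgfb3 was 1.11, 3.14 and 1.07 in C57BL6 WT, C57BL6-BALB/c WT and Cx30-/- vessels. In this library the smooth muscle list was also high (median log2 ratio 0.53 against C57BL6 WT), and its part in the value of Tgfb3 was not tested. The Tgfb3 row shares 12.4% of its bases with 2 genes on the other strand, and the libraries do not keep strand.

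By mean level per kb over the 3 libraries, the leading gene of each role was Inha among ligands (1387, 1900 and 1096 in C57BL6 WT, C57BL6-BALB/c WT and Cx30-/- vessels), Acvr1b among receptors (590, 643 and 441), Rgma among co-receptors (385, 385 and 416), Smad4 among Smads (435, 441 and 502), Ltbp4, which binds latent TGF-beta in the matrix, among extracellular regulators (3972, 2918 and 4736), Fkbp1a among intracellular regulators (1018, 853 and 971) and Klf2 among targets (3887, 1226 and 4492). Ltbp4 and Klf2 had the order of libraries of Eng, and Ltbp4 also its range of levels. Acvr1b, an activin type I receptor, had the reverse order, with its lowest value in Cx30-/- vessels, whereas ALK1 and ALK5 were highest there.

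The genes whose pattern over the 3 libraries lay nearest to the medians of the 10 genes, among 7846 others with 500 normalized counts or more in every library, were Hs3st1, Gja4 and Slc12a4. Hs3st1 stood at 1504 normalized counts in C57BL6 WT, at 1157 in C57BL6-BALB/c WT and at 1789 in Cx30-/- vessels, Gja4 had 2067, 1589 and 2467, and Slc12a4 had 1949, 1487 and 2323. Likeness was the distance between pairs of log2 ratios against C57BL6 WT, 0.0050, 0.0051 and 0.0070 for these genes, and 145 genes lay within 0.1. With 3 libraries such a pattern is described by 2 numbers only.

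Transcript rows of a gene share reads, since a read on a common exon was counted for each. The rows of Acvrl1 (11), Tgfbr2 (2), Id1 (2), Smad6 (2), Tgfbr3 (4) and Tgfbr1 (3 of 5 with enough counts) all had a higher value in Cx30-/- than in each WT library, as had those of Eng (4) save its shortest, a noncoding row of 258 bases (log2 ratio -0.03 against C57BL6 WT). Rows of Tgfbr1 varied most in direction between the WT libraries, from -0.08 to 0.31. Tgfb1, Tgfb2 and Bmpr2 had 1 row each. Rows of 3 genes of the set overlap exons of other genes, by 4.88% of bases for Tgfbr3, 2.42% for Tgfb2 and 1.46% for Eng, so reads there are of uncertain origin.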

How the data were processed

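PolyA+ RNA of purified brain vessels from 3 pooled mice per group was sequenced as strand non-specific libraries. Per the labels, bases were called with CASAVA 1.8.2, reads were aligned with Bowtie and the build was mm10. The authors removed reads that aligned more than once and deposited, for each of 82813 transcripts, the raw count of alignments on its exons. They also deposited that count as a fraction of a library total, the transcript's length and its uncovered bases. The fraction was not used.

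Transcripts were named through GENCODE M21 (83.8% of rows), whose GRCm38 coordinates are given because positions in the files do not match that build. Each gene was represented by its most counted row. Size factors came from the median of ratios. A gene counted as different at 2-fold or more with 50 normalized counts in either library, after the thresholds of the study, without a pseudocount. Intervals of ratios are exact conditional binomial (Clopper-Pearson, 95%) and cover read sampling alone. edgeR 4.0.16 (filterByExpr, TMM, quasi-likelihood) in R 4.3.3 compared Cx30-/- with both WT libraries, and DESeq2 1.42.0 was an alternative, beside other scalings, rows, count minimums and fold limits. Both the ratio step and the edgeR step were tested on simulated data with changes larger than those of the 10 genes, a log2 change of 3 for edgeR. Changes of the size seen in the 10 genes were not simulated. The simulated spread between libraries was smaller than the one edgeR fitted here, a coefficient of variation of 0.21. For the ratio step read sampling alone was simulated. The genes, their pathway list and the marker lists were chosen with earlier results of these data known. Named genes were the 10, Gjb6, pathway genes past 2-fold in any comparison, the leading gene of each role by level, and the 3 nearest in pattern. Id2, Id3, Id4 and Smad7 were added after their values were seen, as were ratios within a library. Of the pathway genes past 2-fold, 1 is not reported here.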

Additional observations from a re-analysis of the deposited data

How the results depend on the processing

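No member of the set passed an adjusted p of 0.05 in edgeR with the filter, without it, with median-of-ratios factors or with a likelihood-ratio test, nor in DESeq2 (0 of 10 each). With a limit of 1.5-fold in place of 2-fold, 1 gene (Bmpr2) passed upward against C57BL6 WT, beside 4.91% of all genes, 6 (Tgfb1, Tgfb2, Tgfbr2, Tgfbr3, Eng and Id1) upward against C57BL6-BALB/c WT, beside 14.1%, and 1 (Tgfbr2) downward between the WT libraries, beside 8.04%. Setting the endothelial median to 0 left 0 past 2-fold against C57BL6-BALB/c WT, where Tgfbr2 was the 1 gene otherwise. It also changed the sign of 4 genes against C57BL6 WT (Tgfb2, Tgfbr1, Tgfbr2 and Smad6), of 9 against C57BL6-BALB/c WT (all but Tgfbr2) and of 8 between the WT libraries (all but Tgfbr2 and Bmpr2). TMM, total count, upper quartile and pairwise scaling, summed or longest rows and a pseudocount of 1 changed no sign of the 10 genes. Of 240 ratios recomputed, 203 moved by less than their counting interval and 37 by more. Of the further pathway genes, 1 in place of 2 passed 2-fold against both WT libraries with upper quartile scaling or with 50 counts required in both libraries. Leaving out a WT library leaves the single-library ratios above, with no spread and no test. Among named genes past 2-fold, Fst, Bmp3, Inhba, Nodal and Grem1 rest on few reads, with 24 to 143 counts per library.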
